A study of Rattus norvegicus with 35 samples.

Results

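The genes described are the 44 fatty acyl-CoA and beta-oxidation enzymes whose symbols carry the family stems Acad, Acaa, Acot, Acox, Acsl, Acsm, Cpt, Hadh, Ech, Eci, Ehhadh and Decr on a rat liver array. They were taken from 13439 genes measured by a probe set with 1 symbol, and the choice of genes rests on names. Each gene is read by its brightest probe set, which was picked by its mean measured signal. By textbook location 25 are mitochondrial, 5 peroxisomal (Acox2, Acox3, Ehhadh, Acot8 and Eci3) and 2, Ech1 and Eci2, occur in both compartments. Another 4 are cytosolic, 5 are membrane-bound long-chain synthetases and 3 were not assigned.

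Liver RNA of 35 rats, 1 array per rat, fell into 6 groups. Unligated control rats underwent hemorrhage and resuscitation, written H/R (6 rats, called control H/R), or its sham version (5 rats, called control sham). Rats whose common bile duct had been double ligated and partly resected under anesthesia developed secondary biliary cirrhosis, received vitamin K every week and were studied at 4 weeks; 5 of them had the sham version (called ligated sham) and 6 had H/R (called ligated H/R). Ligated rats of the last groups also took simvastatin, an inhibitor of HMG-CoA reductase, by gavage in water at 5 mg/kg daily for 3 days with the last dose 1 h before the experiment; 5 of these had the sham version (called simvastatin sham) and 8 had H/R (called simvastatin H/R). A gavage of water alone is not mentioned for untreated ligated rats, and strain, sex and age are not given in the labels. Samples carry only a group and a number, so the p-values rest on the spread among these samples, which may be partly technical.

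Fatty acids enter metabolism as acyl-CoA esters made by synthetases of the Acsl (long-chain) and Acsm (medium-chain) families. Long chains cross into mitochondria through the carnitine shuttle, Cpt1 in the outer and Cpt2 in the inner membrane, and are shortened by a repeating spiral of dehydrogenase, hydratase, hydroxyacyl-CoA dehydrogenase and thiolase steps. Peroxisomes run a parallel spiral for very long and branched chains and bile acid intermediates, started by the oxidases of the Acox family. It is continued by bifunctional enzymes, of which Ehhadh is among the members and Hsd17b4 is not. Acyl-CoA thioesterases (Acot) release the free acid again. The hepatocyte is the main site of these reactions in liver, and the nuclear receptor PPAR alpha is known to drive many of the genes.

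Most of the family had lower signals in ligated than in control livers. Between ligated sham and control sham livers 24 of the 44 members fell, 4 rose (Acot9, Acot1, Cpt1c and Acsl3) and 16 did not pass an adjusted p of 0.05 in the limma fit over all genes. Of all genes tested 47.6% passed in that comparison, 22.4% lower and 25.3% higher. The median log2 difference of the members was -0.58, beside -0.043 over all genes. Between ligated H/R and control H/R livers, which are other animals, 26 members fell, 3 rose and 15 did not pass, beside 47% of all genes (22.3% lower, 24.7% higher), and the medians were -0.54 and -0.032. The 26 members past the threshold in the same direction in both comparisons, 23 lower and 3 higher, made up 92.9% of the calls in sham and 89.7% of those in H/R livers. Over all genes these shares were 77% and 78.1%. When the ending of the sample number was added to the fit, 3 members passed in sham and 18 in H/R livers.

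**Figure D1:**
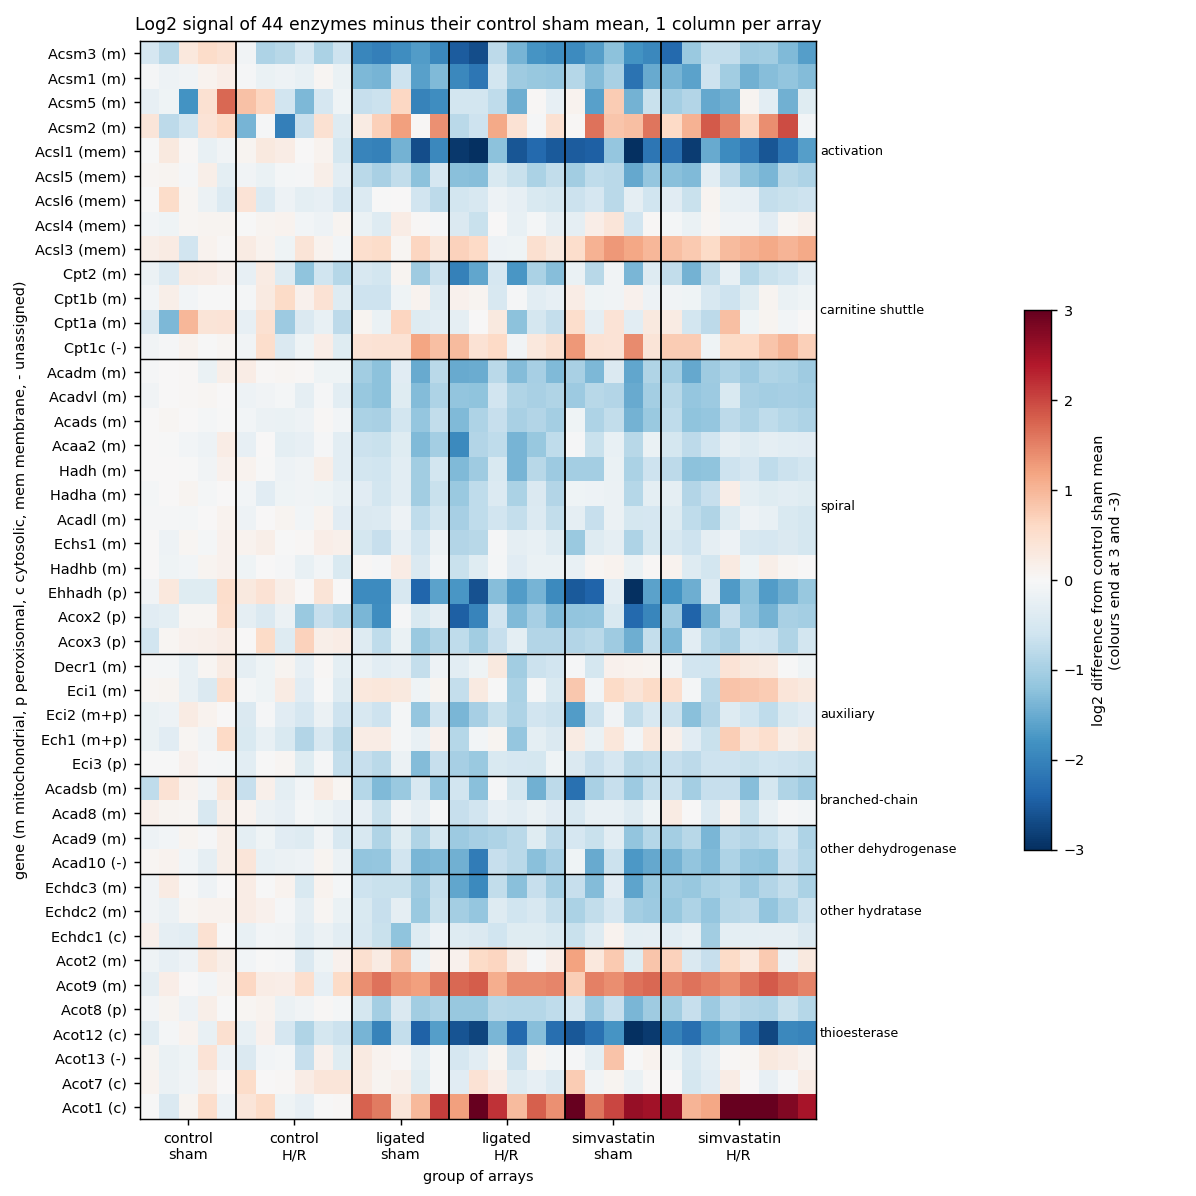
Log2 signal of each of the 44 enzymes (rows, ordered by role) minus its control sham mean, with 1 column per array and vertical lines between the 6 groups; blue is lower and red higher. The 4 ligated groups are blue across most spiral enzymes and for Acsl1, Acsl5, Acsm1 and Acsm3, and red for Acot9 and Acot1.

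The arrays of the groups differed in more than ligation. The mean of the brightest nonspecific probe, used here as the floor for detection, was 4.51 and 4.59 log2 units in the control groups, 3.64 and 4.00 in the ligated groups and 3.26 and 3.32 in the simvastatin groups. The spiked-in control bioD exceeded bioB by 2.74 and 2.70 log2 units on control arrays, by 3.20 and 3.09 on ligated and by 3.27 and 3.25 on simvastatin arrays. The sample numbers of all control rats end in 13, those of untreated ligated rats in 03, 04, 05, 06 or 12, and those of simvastatin rats in 12 or 13; what the endings mean is not stated. Control and untreated ligated livers therefore share no ending and can be compared within endings only by way of the simvastatin rats. The ligated sham arrays, ending in 03, 04 or 06, share no ending with simvastatin rats either. Their link runs through ligated H/R arrays, of which 2 end in 12. In bulk liver fewer hepatocytes and less RNA per hepatocyte cannot be told apart. Of 12 hepatocyte markers 11 were measured, all 11 had a negative difference in ligated sham livers and 7 fell (median -0.27, Alb -0.05 ± 0.06, Hnf4a -0.78 ± 0.21), with a mean level of 12.8 (range 12.7 to 12.8) in control sham and 12.4 (12.3 to 12.6) in ligated sham arrays. Of 9 measured cholangiocyte markers 8 rose (median 4.67, mean level 4.82 in control sham and 8.75 in ligated sham arrays), and Sox9 was not above the floor; 8 of 8 myofibroblast markers (median 1.94, mean level 5.92 and 7.85) and 4 of 7 macrophage markers (median 1.01, mean level 7.33 and 8.39) rose. Of 5 neutrophil markers 0 passed, and of 8 adipocyte and muscle markers 0 rose and 2 fell, with 1 above the floor in ligated sham arrays. The part of these shifts in the results below was not tested.

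In a fit of all 35 arrays with the title ending as a block, an alternative chosen after seeing the data, 3 of 44 members passed for ligation in sham livers: Acads (-1.13 ± 0.29) and Acadvl (-0.87 ± 0.25) lower and Acot9 (1.52 ± 0.32) higher. The other 25 calls in sham livers were lost. Ending 04 belongs to ligated sham replicate 4 alone and ending 05 to ligated H/R replicate 5 alone. A block of 1 array is fitted exactly, so these arrays add nothing to the ligation differences of that fit. Ligated sham replicate 4 was lowest of its group in 19 of the 23 members lower in both ligation comparisons. For H/R livers 17 members fell and 1 rose in that fit: Acaa2, Acad10, Acad9, Acadl, Acadm, Acads, Acadvl, Acot12, Acot8, Acsl1, Acsl5, Acsm1, Echdc2, Echdc3, Eci3, Hadh and Hadha fell and Acot9 rose. Over all genes the calls dropped to 1129 in sham and 3480 in H/R livers. Standard errors were larger, for Acsl1 0.61 in place of 0.30 in sham livers, where its difference was -0.85. Among arrays ending in 13, 33 of the 44 members had a lower and 11 a higher mean in the 3 simvastatin sham than in the 5 control sham livers (median -0.50, beside -0.070 over all genes), and 21 were lower without overlap, beside 23.6% of all genes. In the 6 simvastatin H/R against the 6 control H/R livers 32 were lower and 12 higher (median -0.42, beside -0.055), and 14 were lower without overlap, beside 12.5% of all genes. These comparisons use the same control arrays as the ligation comparisons and are no independent support for them. Acsl1 differed there by -2.22 and -2.18 and Acot9 by 1.58 and 1.31. In these arrays ligation and the drug cannot be told apart.

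Of the members, 37 lay above the nonspecific floor in all 6 groups. Acadsb, Acot1, Acox3, Acsm5, Cpt1b and Cpt1c did so in some groups, and Acsl6, a synthetase best known from brain, in none. For these genes a fold is a bound against the floor, or is not given. Errors of log2 differences are standard errors of the fit.

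Of the 9 activating enzymes 4 fell and 1 rose in sham livers, and 4 fell after H/R. These are 55.6% and 44.4% of the group, near the 47.6% and 47% of all genes past the threshold. Acsl1, the main long-chain acyl-CoA synthetase of liver, read 10.64, 10.75, 10.84, 10.91 and 11.15 in control sham livers and 8.19, 8.82, 8.87, 8.92 and 9.45 in ligated sham livers. The groups lay more than 1 log2 unit apart and did not overlap. Acsl1 fell 4.03-fold (log2 -2.01 ± 0.30, adjusted p = 1.6e-06, limma). After H/R it ran from 10.33 to 11.16 (median 10.96) in control and from 7.73 to 9.63 (median 8.31) in ligated livers, again without overlap, a 5.57-fold fall (-2.48 ± 0.28, adjusted p = 6e-09). A second bright probe set of Acsl1 gave -2.33 ± 0.30 and -2.73 ± 0.28, and the last one, with a mean signal of 3.00, gave 0.28 ± 0.19 and 0.05 ± 0.18.

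The other long-chain synthetases went different ways. Acsl5, of mitochondria and endoplasmic reticulum, fell 1.8-fold in sham (-0.85 ± 0.18) and 1.75-fold in H/R livers (-0.80 ± 0.16) and its other probe set gave -0.04 ± 0.18 and 0.10 ± 0.17. Acsl4, which prefers arachidonate, differed by -0.07 ± 0.14 and -0.28 ± 0.13, neither past the threshold. Acsl3, of endoplasmic reticulum and lipid droplets, rose 1.34-fold in ligated sham livers (7.11 to 7.70 against 6.49 to 7.31, overlapping, 0.42 ± 0.17, adjusted p = 0.039). That call was lost without control sham replicate 3 (adjusted p = 0.17), which held the lowest value, and in 4 other fits with 1 array left out; adjusted p was 0.061 when the other groups were left out of the fit, 0.080 after a further quantile normalization and 0.20 with arrays centred on their medians. After H/R the difference of Acsl3 was 0.19 ± 0.15.

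Among the medium-chain synthetases of the mitochondrial matrix, Acsm3 read 5.91, 6.24, 7.07, 7.19 and 7.31 in control sham and 4.69, 4.79, 4.81, 4.89 and 5.07 in ligated sham livers. The ligated values were tightly grouped below all controls, a 3.72-fold fall (-1.89 ± 0.29, adjusted p = 2.4e-06). In H/R livers the ranges of Acsm3 overlapped (5.79 to 6.63, median 6.02, against 4.09 to 5.95, median 4.93), and it fell 2.25-fold (-1.17 ± 0.27). Acsm1 fell 2.41-fold from 11.15 ± 0.15 (SD, n = 5) in control sham livers to 9.88 ± 0.38 (SD, n = 5) and 2.3-fold after H/R. Acsm2 had positive differences of 0.71 ± 0.43 and 0.78 ± 0.39 and Acsm5 negative ones of -0.92 ± 0.52 and -0.42 ± 0.48, none past the threshold. Acsm genes are close relatives, so a probe set may read more than 1 of them.

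At the carnitine shuttle the liver form Cpt1a, the regulated entry step, showed almost no mean difference and a wide spread. It read 7.38, 8.30, 9.11, 9.13 and 9.73 in control sham livers and 8.34, 8.42, 8.54, 8.81 and 9.37 in ligated sham livers, and the ligated values lay inside the control range. The difference was -0.03 ± 0.34 with a 95% interval from -0.72 to 0.66, and after H/R -0.02 ± 0.31 with an interval from -0.65 to 0.61. These intervals cover differences as large as those of the spiral enzymes Acadl and Echs1 in the same livers. A second, dimmer probe set of Cpt1a (mean 5.48) gave -0.39 ± 0.38 and -0.45 ± 0.35, neither past the threshold. Cpt2, which returns the acyl group to CoA inside the mitochondrion, differed by -0.53 ± 0.27 in sham livers (adjusted p = 0.10) and fell 1.79-fold in H/R livers (-0.84 ± 0.25, adjusted p = 0.0056). The muscle form Cpt1b (-0.33 ± 0.16 and -0.30 ± 0.14, not past the threshold) lay near the floor. The brain form Cpt1c rose in the test (0.67 ± 0.22 and 0.50 ± 0.20, adjusted p = 0.012 and 0.039), but it was above the floor in ligated sham, simvastatin sham and simvastatin H/R livers alone, so no fold is given. The H/R call of Cpt1c was lost with arrays centred on their medians (adjusted p = 0.11) and without any 1 of 8 arrays (0.057 to 0.12), and the sham call without ligated sham replicate 4 (0.050). With the title ending as a block both were lost (0.88 ± 0.45 and 0.74 ± 0.34, adjusted p = 0.24 and 0.11).

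Counting both compartments, 10 of 12 spiral enzymes fell in sham livers (median -0.74) and 11 of 12 in H/R livers (median -0.86). Of all genes 22.4% fell in sham livers (median -0.043) and 22.3% in H/R livers (median -0.032). Acadvl, the very long-chain dehydrogenase, read 8.97, 9.09, 9.09, 9.11 and 9.14 in control sham and 7.77, 7.85, 7.95, 8.15 and 8.73 in ligated sham livers. The controls lay within 0.2 log2 units of each other and above all ligated values. Acadvl fell 1.99-fold (-0.99 ± 0.15, adjusted p = 1.4e-06), and 1.75-fold after H/R (8.77 to 9.05, median 8.96, against 7.88 to 8.50, median 8.14; -0.80 ± 0.13).

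Acadm, the medium-chain dehydrogenase, read 10.49, 10.67, 10.71, 10.74 and 10.88 in control sham and 9.19, 9.46, 9.66, 9.89 and 10.35 in ligated sham livers, a 1.98-fold fall without overlap (-0.99 ± 0.18, adjusted p = 2.4e-05). After H/R it fell 2.38-fold (10.57 to 10.92, median 10.74, against 9.18 to 9.90, median 9.39; -1.25 ± 0.16, adjusted p = 1.1e-07). Acads, the short-chain dehydrogenase, read 8.24, 8.28, 8.30, 8.31 and 8.37 against 7.14, 7.34, 7.35, 7.57 and 7.74. It fell 1.83-fold (-0.87 ± 0.15, adjusted p = 1.3e-05) and after H/R 1.82-fold (8.11 to 8.32, median 8.18, against 6.98 to 7.60, median 7.35; -0.86 ± 0.14, adjusted p = 3.7e-06). Acadl, the long-chain dehydrogenase, fell less, 1.38-fold and 1.56-fold (-0.46 ± 0.13 and -0.64 ± 0.12), again without overlap.

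Further along the spiral, Hadh, the short-chain hydroxyacyl-CoA dehydrogenase, read 10.29, 10.37, 10.40, 10.40 and 10.51 in control sham and 9.35, 9.79, 9.84, 9.84 and 10.08 in ligated sham livers. It fell 1.53-fold (-0.61 ± 0.17, adjusted p = 0.003) and 1.98-fold after H/R (10.07 to 10.58, median 10.34, against 9.0 to 9.93, median 9.32; -0.98 ± 0.15, adjusted p = 3.1e-06), without overlap in either set. The short-chain hydratase Echs1 fell 1.35-fold and 1.46-fold (-0.44 ± 0.15 and -0.55 ± 0.13). Acaa2, the mitochondrial thiolase of the last step, fell 1.75-fold and 1.94-fold (-0.81 ± 0.18 and -0.96 ± 0.16). Its dim second probe set (mean 5.37) gave 0.18 ± 0.25 and -0.40 ± 0.23, and the mean of both probe sets was not past the threshold in sham livers (-0.31 ± 0.19, adjusted p = 0.17).

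The subunits of the trifunctional protein, which carries several spiral steps for long chains, did not give the same reading. Hadha, the alpha subunit, read 8.67, 8.67, 8.74, 8.75 and 8.81 in control sham and 7.69, 8.06, 8.17, 8.39 and 8.42 in ligated sham livers. It fell 1.5-fold in both comparisons (-0.58 ± 0.16 and -0.59 ± 0.15). Averaged with its dim probe sets it did not pass (-0.23 ± 0.10 and -0.18 ± 0.09, adjusted p = 0.050 and 0.097). Hadhb, the beta subunit, read 9.79, 9.84, 9.93, 9.99 and 10.06 against 9.49, 9.83, 9.88, 9.95 and 10.14, so its groups overlapped throughout. Its differences were -0.06 ± 0.14 and -0.14 ± 0.12, with 95% intervals from -0.34 to 0.21 and from -0.40 to 0.11; whether Hadha and Hadhb differ from each other was not tested.

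The mitochondrial enzymes that prepare unsaturated chains did not pass. Decr1, the dienoyl-CoA reductase, differed by -0.32 ± 0.19 and -0.26 ± 0.17, and the isomerase Eci1 by 0.18 ± 0.24 and -0.20 ± 0.22. Ech1, a dienoyl-CoA isomerase of both compartments, differed by 0.06 ± 0.22 and 0.10 ± 0.20. Eci2, the isomerase of both compartments, fell 1.5-fold and 1.43-fold (-0.58 ± 0.21 and -0.52 ± 0.19, adjusted p = 0.023 and 0.027), calls that were lost when 1 of several arrays was left out (adjusted p up to 0.10 without ligated sham replicate 4 and 0.088 without ligated H/R replicate 1).

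The peroxisomal members were led by Ehhadh, a bifunctional enzyme of the peroxisomal spiral, and given in full, like Acot12, after its values were seen. Ehhadh read 7.97, 7.98, 8.25, 8.66 and 8.86 in control sham and 5.97, 6.45, 6.47, 6.73 and 7.87 in ligated sham livers. The highest ligated array came within 0.1 log2 units of the lowest control, and the other 4 lay well below. Ehhadh fell 3.13-fold (-1.65 ± 0.37, adjusted p = 0.00037), and 3.96-fold after H/R (8.35 to 8.77, median 8.58, against 5.74 to 7.07, median 6.63; -1.98 ± 0.33, adjusted p = 9.3e-06). With the title ending as a block Ehhadh differed by 0.12 ± 0.68 in sham and by -1.15 ± 0.52 in H/R livers (adjusted p = 0.94 and 0.10).

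Acot8, the thioesterase of peroxisomes, had a smaller but tight fall. It read 6.93, 6.98, 7.05, 7.16 and 7.24 in control sham and 6.03, 6.04, 6.15, 6.55 and 6.62 in ligated sham livers, 1.73-fold lower (-0.79 ± 0.13, adjusted p = 8.5e-06). After H/R Acot8 fell 1.88-fold (6.90 to 7.17, median 7.06, against 5.93 to 6.31, median 6.21; -0.91 ± 0.12, adjusted p = 1.6e-07), without overlap. Eci3, the peroxisomal isomerase, fell 1.66-fold and 1.31-fold (-0.73 ± 0.16 and -0.39 ± 0.15); the H/R call was lost with the other groups left out of the fit (adjusted p = 0.092), after a further quantile normalization (0.10) and without any 1 of 5 arrays (0.067 to 0.11).

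Acox2, the oxidase of branched chains and bile acid intermediates, varied widely among ligated livers. It read 10.02, 10.07, 10.41, 10.41 and 10.86 in control sham and 8.49, 9.0, 9.91, 10.09 and 10.31 in ligated sham livers, with 2 ligated arrays inside the control range. Its difference of -0.80 ± 0.35 missed the threshold (adjusted p = 0.058), and after H/R it fell 1.81-fold (-0.86 ± 0.32, adjusted p = 0.026), a call lost without any 1 of 4 arrays (adjusted p = 0.053 to 0.094). Acox3, a further oxidase of branched chains, fell in the test (-0.68 ± 0.20 and -0.98 ± 0.19) close to the floor. It was above the floor in control H/R but not in control sham livers, so the H/R fall is at least 1.58-fold and no fold is given for sham.

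Set side by side, 8 of 14 mitochondrial shuttle and oxidation enzymes (Cpt1a, Cpt1b, Cpt2, Acadvl, Acadl, Acadm, Acads, Hadha, Hadhb, Hadh, Echs1, Acaa2, Eci1 and Decr1) fell in sham livers with a median of -0.50 (range -0.99 to 0.18), and 4 of 5 peroxisomal members with a median of -0.79 (range -1.65 to -0.68). In H/R livers the counts were 9 of 14 with a median of -0.61 (range -1.25 to -0.02) and 5 of 5 with a median of -0.91 (range -1.98 to -0.39). Acox3, counted among the 5, was not above the floor in control sham or ligated H/R livers. Cpt1b, counted among the 14, was above it in none of these groups. The mean floor itself was 4.51 in control sham and 3.64 in ligated sham arrays, and 4.59 and 4 in H/R arrays. The sham call of Acox3 is therefore no fall from a detected level. Of all genes 22.4% fell in sham and 22.3% in H/R livers, and 47.6% and 47% passed in either direction. The medians over all genes were -0.043 and -0.032. Over all 25 mitochondrial members 14 fell, 1 rose and the median was -0.58 in sham, and 15 fell, 1 rose and the median was -0.59 in H/R livers. With Ech1 and Eci2 counted as peroxisomal the peroxisomal median was -0.73 and -0.86, with 5 of 7 and 6 of 7 lower. The 5 peroxisomal members include the thioesterase Acot8, while thioesterases are left out of the 14 mitochondrial enzymes. Without Acot8 the peroxisomal medians were -0.76 and -0.92, with 3 of 4 and 4 of 4 lower. The peroxisomal members thus had the lower median in both comparisons, but they are 5 genes, their ranges overlap those of the mitochondrial enzymes, and the difference between the compartments was not tested. With the title ending as a block the mitochondrial and peroxisomal medians were -0.30 and -0.52 in sham and -0.74 and -1.03 in H/R livers. Per array, the median over the 14 mitochondrial enzymes relative to control sham ran from -0.91 to -0.25 in ligated sham and from -1.05 to -0.47 in ligated H/R livers, and the median over the 5 peroxisomal members from -1.12 to -0.19 and from -1.14 to -0.68.

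**Figure D2:**
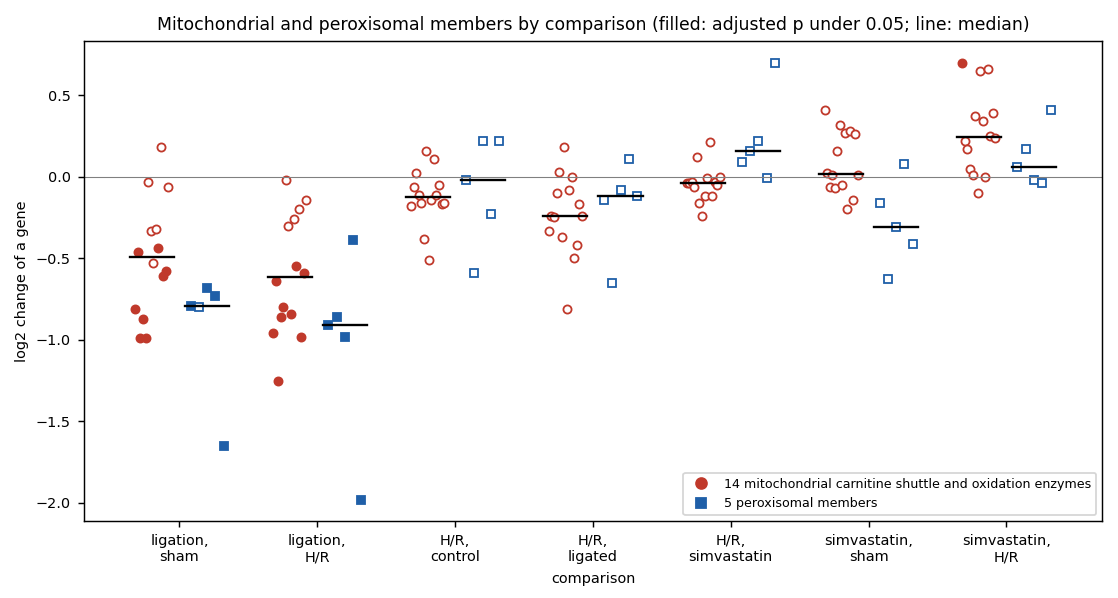
Log2 change of each of the 14 mitochondrial carnitine shuttle and oxidation enzymes (circles) and 5 peroxisomal members (squares) in the 7 comparisons between groups; filled symbols have an adjusted p under 0.05 and bars mark medians. Filled symbols lie below 0 in the ligation comparisons, with medians of -0.50 and -0.79 in sham and -0.61 and -0.91 in H/R livers, and the 1 filled symbol elsewhere is Acaa2 with simvastatin after H/R.

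The thioesterases split. Acot9, a mitochondrial thioesterase, read 6.24, 6.43, 6.51, 6.62 and 6.71 in control sham and 7.74, 7.83, 7.90, 8.07 and 8.13 in ligated sham livers. Both groups were tight and lay a whole log2 unit apart. Acot9 rose 2.7-fold (1.43 ± 0.16, adjusted p = 5.4e-09), the smallest p of the family in sham livers, and 2.26-fold after H/R (6.26 to 7.13, median 6.87, against 7.60 to 8.32, median 7.95; 1.18 ± 0.15, adjusted p = 4.6e-08).

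Acot1, the cytosolic thioesterase that responds to PPAR alpha ligands in rodents, read 3.08, 3.34, 3.49, 3.57 and 4.04 in control sham livers, all under the mean floor there, and 3.87, 4.47, 5.07, 5.27 and 5.58 in ligated sham livers. Its groups overlapped by 1 array, and it rose at least 1.27-fold (1.35 ± 0.44, adjusted p = 0.012). After H/R Acot1 rose at least 1.62-fold (3.25 to 4.06, median 3.52, against 4.44 to 6.75, median 5.07; 1.69 ± 0.40, adjusted p = 0.00084), without overlap. With the title ending as a block Acot1 differed by -0.04 ± 0.82 in sham and by 1.00 ± 0.63 in H/R livers (adjusted p = 0.98 and 0.26), so its direction in sham livers turned. Acot2, its close mitochondrial relative, differed by 0.29 ± 0.25 and 0.39 ± 0.23, not past the threshold, and the pair is similar enough that probe sets may share signal.

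Acot12, the acetyl-CoA thioesterase of liver cytosol and the largest fall among the thioesterases, read 6.86, 6.96, 7.13, 7.29 and 7.65 in control sham and 4.74, 5.18, 5.52, 5.77 and 6.46 in ligated sham livers. It fell 3.13-fold in both comparisons (-1.65 ± 0.30 and -1.64 ± 0.28, adjusted p = 3.7e-05 and 9.8e-06), without overlap. Acot7 differed by 0.01 ± 0.17 in sham livers and fell 1.3-fold after H/R (-0.38 ± 0.16, adjusted p = 0.046), a call lost in 8 fits with 1 array left out (adjusted p = 0.059 to 0.11). Acot13 differed by 0.01 ± 0.18 and 0.01 ± 0.17.

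Of the remaining relatives, Acad10 fell 2.18-fold and 2.25-fold (-1.13 ± 0.24 and -1.17 ± 0.22). Acad9, needed for assembly of respiratory complex I, fell 1.56-fold and 1.45-fold (-0.64 ± 0.15 and -0.54 ± 0.14). The hydratase-domain proteins Echdc2 and Echdc3 fell 1.55-fold and 1.68-fold in sham livers. After H/R Echdc3 fell 2.26-fold (8.18 to 8.87, median 8.68, against 6.73 to 7.95, median 7.51; -1.18 ± 0.17, adjusted p = 1.1e-06), without overlap. Echdc1, which removes ethylmalonyl-CoA, fell in sham livers (-0.58 ± 0.16) and did not pass after H/R (-0.23 ± 0.15). Acad8 of valine breakdown differed by -0.27 ± 0.15 and -0.26 ± 0.13, and Acadsb of isoleucine breakdown fell in the test (-0.99 ± 0.26 and -0.67 ± 0.24) from control levels not above the floor. The H/R call of Acadsb was lost without any 1 of 3 arrays (adjusted p = 0.052 to 0.072), and with the title ending as a block its differences were -0.23 ± 0.51 and 0.02 ± 0.39.

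**Figure D3:**
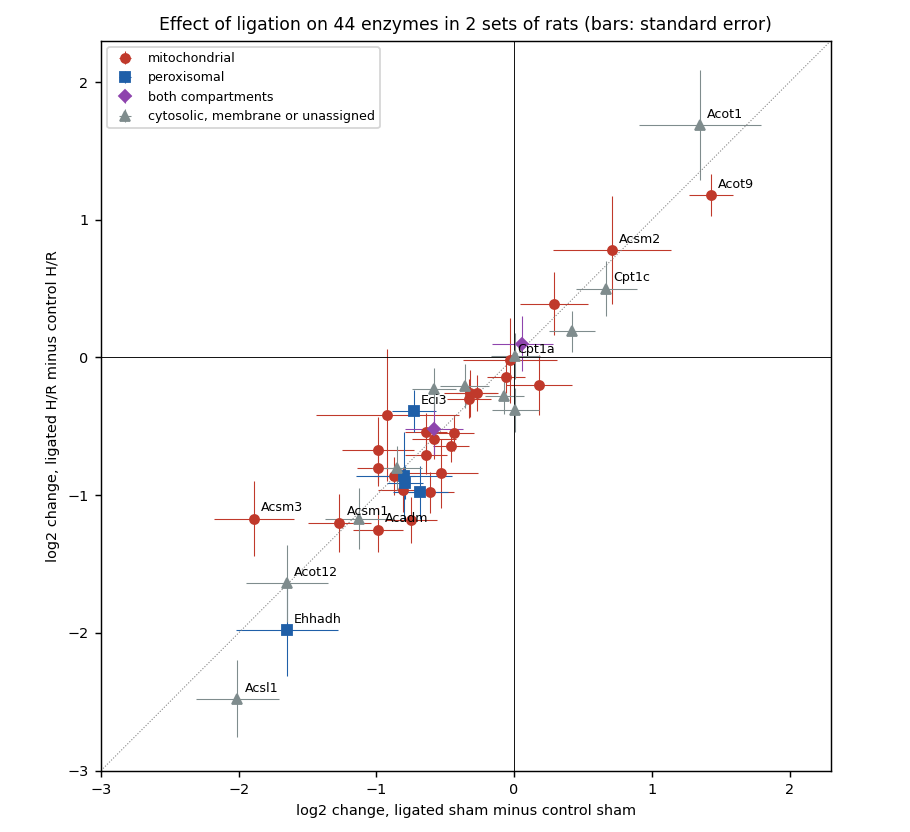
Log2 change with ligation in sham livers (horizontal) against H/R livers (vertical) for the 44 enzymes, coloured by compartment, with standard errors and the line of equal change. Acsl1 lies lowest at -2.01 and -2.48, Acot1 and Acot9 stand above 1 on both axes, and Cpt1a lies at the origin.

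By group separation, 20 members had all ligated sham values below all control sham values and 2 had all above, beside 13.3% and 18.8% of all genes; in H/R livers the counts were 18 and 2, beside 8.94% and 14.3%. The spread among ligated livers was shared between members. Of the 23 members that fell in both comparisons, ligated sham replicate 3 held the highest value of its group in 18 and replicate 4 the lowest in 19. In the ligated H/R group replicate 3 was highest in 14 and replicate 2 lowest in 13. The median of these 23 members relative to control sham was -0.37 in ligated sham replicate 3 and -1.16 in replicate 4, and -0.68 in ligated H/R replicate 3, -1.16 in replicate 2 and -1.32 in replicate 1. The mean level of the cholangiocyte markers was lowest of their group in the same replicates 3 (8.01 and 7.90), against 8.68 to 9.02 and 8.25 to 8.87 in the others, and the hepatocyte mean was highest there (12.6 and 12.6). Ligated sham replicate 4 had means of 9.02 and 12.4, near those of replicate 1 (9.01 and 12.4). Ligated H/R replicate 2 had the highest cholangiocyte (8.87) and lowest hepatocyte mean (12) of its group. So had simvastatin sham replicate 4 (9.17 and 11.9), lowest in 16 members. Simvastatin H/R replicate 3 had the lowest cholangiocyte (7.79) and highest hepatocyte mean (12.6) of its group, but was highest in 4 members. The sample numbers of ligated sham replicates 3 and 4 end in 03 and 04, and those of the other ligated sham arrays in 06. In the ligated H/R group replicates 1 and 3 both end in 12 and replicate 2 in 06. The part of the marker levels and of the endings in the enzyme levels was not tested.

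For members that moved together, promoter sequence was read from RefSeq on assembly GRCr8, 250 bases before to 50 after the start, for 38 of the 44 members. The letters AGGTCA, a hexamer bound by many nuclear receptors, were searched on both strands. They occurred in 11 of 38 members (28.9%) and in 16.2% of 33469 promoters of the same length; 8 of the 21 promoters of members lower in both comparisons and 3 of the 17 others held them. An exact direct repeat of the hexamer with 1 base between, the form PPAR alpha recognises, occurred in 0 members and in 0.0538% of promoters. Repeats with a changed letter were not searched, and at so rare a share 0 of 38 tells little about the members. Acadvl, on the minus strand at chr10:55236656-55236955, holds 2 matches, the first base of the nearer one 17 bases before the start, and Acot12, on the plus strand at chr2:24721709-24722008, holds 1 on the opposite strand. Acsl1 (minus strand, chr16:52532343-52532642), the largest fall, and Acot9 (minus strand, chrX:43973156-43973455), a rise, hold none in this window. A match describes letters and not a bound site. The promoters of these 4 contrasting members are shown 5′ to 3′ with matches in capitals.
Acadvl: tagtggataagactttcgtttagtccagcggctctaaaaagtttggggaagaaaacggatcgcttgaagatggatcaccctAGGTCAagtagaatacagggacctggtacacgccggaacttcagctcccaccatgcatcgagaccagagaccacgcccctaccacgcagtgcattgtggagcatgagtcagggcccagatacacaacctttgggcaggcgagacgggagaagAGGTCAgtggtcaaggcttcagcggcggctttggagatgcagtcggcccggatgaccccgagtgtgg
Acot12: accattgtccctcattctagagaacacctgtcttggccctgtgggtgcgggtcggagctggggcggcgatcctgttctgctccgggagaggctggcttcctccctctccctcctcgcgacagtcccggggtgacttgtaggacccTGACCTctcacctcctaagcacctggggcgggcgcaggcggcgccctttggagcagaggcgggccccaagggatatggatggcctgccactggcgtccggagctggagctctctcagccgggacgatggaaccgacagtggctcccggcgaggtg
Acsl1: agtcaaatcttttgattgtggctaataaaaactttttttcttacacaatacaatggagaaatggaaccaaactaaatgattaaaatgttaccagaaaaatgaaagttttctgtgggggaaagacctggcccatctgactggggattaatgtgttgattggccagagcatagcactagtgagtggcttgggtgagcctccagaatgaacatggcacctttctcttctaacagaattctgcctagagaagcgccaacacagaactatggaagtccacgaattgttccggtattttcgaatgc
Acot9: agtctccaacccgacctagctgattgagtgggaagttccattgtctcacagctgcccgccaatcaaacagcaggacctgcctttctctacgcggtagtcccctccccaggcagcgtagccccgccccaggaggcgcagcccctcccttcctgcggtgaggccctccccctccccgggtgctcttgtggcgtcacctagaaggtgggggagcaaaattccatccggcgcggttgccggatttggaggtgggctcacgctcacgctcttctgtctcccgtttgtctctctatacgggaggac

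Other genes linked to fatty acid oxidation, from a list of 48 with 44 measured, moved mostly the same way. The list also holds genes of uptake, storage and regulation, such as Cd36, Plin2, Angptl4 and Txnip. In ligated sham livers 28 fell and 4 rose (Txnip, Cd36, Crat and Pex11a) with a median of -0.64, and in ligated H/R livers 27 fell and 3 rose with a median of -0.59. Over all genes 22.4% fell and 25.3% rose in sham livers (median -0.043), and 22.3% and 24.7% in H/R livers (median -0.032). Acat1, the mitochondrial acetoacetyl-CoA thiolase, fell 3.51-fold (-1.81 ± 0.12, adjusted p = 1.6e-13), and Bdh1, which makes 3-hydroxybutyrate, 6.19-fold (-2.63 ± 0.32). Fabp1, the fatty acid binding protein of hepatocytes, fell 4.9-fold (-2.29 ± 0.32). Angptl4, which inhibits lipoprotein lipase, fell 4.91-fold, and Nudt7, a peroxisomal CoA hydrolase, 2.8-fold. The peroxisomal enzyme Hsd17b4 fell 1.45-fold in sham and 1.36-fold in H/R livers. Txnip, an arrestin-like regulator of glucose uptake, rose 6.34-fold (2.66 ± 0.27), Cd36, a fatty acid transporter, 3.13-fold (1.65 ± 0.26), and Crat, carnitine acetyltransferase, at least 2.19-fold (1.57 ± 0.27). Ppara itself was not above the floor in any group, control livers included, and neither was Rxra. A signal under the floor does not show that a gene is silent, so no change of Ppara could be measured.

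For hemorrhage and resuscitation no member passed the threshold. In control livers 0 of 44 passed in limma (0.856% of all genes did), with 3 at an unadjusted p under 0.05, beside 12.2% of all genes. The smallest p belonged to Ech1, which read 8.65, 8.79, 8.90, 9.07 and 9.60 in control sham and 8.11 to 8.79 (median 8.52) in control H/R livers, a difference of -0.56 ± 0.21 (adjusted p = 0.23). Acsm3 differed by -0.66 ± 0.28 and Acot9 by 0.32 ± 0.15.

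In ligated livers 0 of 44 passed (0.134% of all genes did), with 5 at an unadjusted p under 0.05, all with negative differences, beside 10.4% of all genes. The smallest p was that of Cpt2, which read 7.47, 7.89, 7.97, 8.04 and 8.61 in ligated sham and 6.49 to 8.02 (median 7.10) in ligated H/R livers. The groups overlapped, and the difference was -0.81 ± 0.26 (95% interval -1.34 to -0.29, adjusted p = 0.22). Hadh differed by -0.42 ± 0.16 and Ech1 by -0.52 ± 0.21. Echdc3, with Cpt2 and Hadh among the 3 of smallest p, averaged 7.89 in ligated sham and 7.45 in ligated H/R livers. The median over the 44 members was -0.13, beside -0.015 over all genes.

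With simvastatin 0 of 44 passed for H/R against sham (0% of all genes did), with 2 at an unadjusted p under 0.05, which is 4.55% of members beside 5.39% of all genes. Ehhadh read 4.88, 5.82, 5.94, 6.74 and 8.03 in simvastatin sham livers, the widest range of that gene in any group, and 6.56 to 7.93 (median 6.88) in simvastatin H/R livers, a difference of 0.70 ± 0.33 (adjusted p = 0.89). Acot12 differed by 0.56 ± 0.27 and Acot2 by -0.39 ± 0.22.

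Whether ligation or simvastatin altered the response to H/R was tested as a difference of differences. Between ligated and control livers 0 of 44 members passed (0.00744% of all genes did), and 0 had an unadjusted p under 0.05, beside 5.46% of all genes. The smallest p belonged to Acsm3 (0.73 ± 0.40, adjusted p = 0.92), followed by Acot7 (-0.40 ± 0.23) and Echdc3 (-0.43 ± 0.26). Between simvastatin and untreated ligated livers 0 of 44 passed (0.00744% of all genes did), and 1 had an unadjusted p under 0.05, Acot12 (1.01 ± 0.40, 95% interval 0.20 to 1.82, adjusted p = 0.88), which is 2.27% of members beside 4.87% of all genes. Cpt1b (-0.42 ± 0.21) and Echdc3 (0.49 ± 0.25) came next.

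Simvastatin had few measurable effects on the family, and most members low after ligation were low with the drug too. In sham livers 0 of 44 members passed against ligated sham (0.781% of all genes did), with 5 at an unadjusted p under 0.05, beside 10.8% of all genes. Acsl3 read 7.11, 7.40, 7.57, 7.60 and 7.70 in ligated sham and 7.60, 8.06, 8.10, 8.22 and 8.35 in simvastatin sham livers. Its groups overlapped at 1 array of the simvastatin group, and the difference was 0.59 ± 0.17 (adjusted p = 0.10). Acot12 differed by -0.96 ± 0.30 (adjusted p = 0.16), from 4.74 to 6.46 without and 3.60 to 5.41 with the drug, and Acaa2 by 0.41 ± 0.18 (adjusted p = 0.38).

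After H/R 2 members were higher with simvastatin, Acaa2 and Acsl3, beside 1.35% of all genes past the threshold (0.848% higher). Acaa2 ran from 8.87 to 10.03 (median 9.77) in ligated H/R and from 10.00 to 10.51 (median 10.41) in simvastatin H/R livers, and the ranges overlapped at their ends. It rose 1.63-fold (0.70 ± 0.15, adjusted p = 0.012), to a mean of 10.35 against 10.60 in control H/R livers. The call was lost without ligated H/R replicate 1, the lowest array (0.55 ± 0.14, adjusted p = 0.058), with the mean of its probe sets (0.51 ± 0.16, adjusted p = 0.12) and with the title ending as a block (0.93 ± 0.33, adjusted p = 0.68).

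Acsl3 ran from 6.91 to 7.74 (median 7.44) in ligated H/R and from 7.62 to 8.20 (median 8.05) in simvastatin H/R livers, and 2 untreated arrays reached the treated range. It rose 1.57-fold (0.65 ± 0.14, adjusted p = 0.013), above its means in both control groups (7.06 and 7.16). This call was lost without ligated H/R replicate 4 (0.56 ± 0.15, adjusted p = 0.060) and with the title ending as a block (0.66 ± 0.27, adjusted p = 0.78). The third smallest p was that of Ech1 (0.61 ± 0.19, adjusted p = 0.10).

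In the same comparison 12 of the 44 members had an unadjusted p under 0.05, all 12 with positive differences, beside 14.4% of all genes. They were Acaa2, Acsl3, Ech1, Eci1, Cpt2, Hadha, Acsm2, Acsm3, Acot1, Decr1, Hadhb and Acad8. The median was 0.18 over the 44 members and -0.001 over all genes. Of the 14 mitochondrial shuttle and oxidation enzymes 13 had positive differences with a median of 0.25, and of the 5 peroxisomal members 3 did with a median of 0.06. In sham livers the medians with simvastatin were 0.02 and -0.31. With simvastatin after H/R the hepatocyte markers had a median of -0.03 and the cholangiocyte markers of 0.13. All 5 measured neutrophil markers (median -1.34) and all 7 measured macrophage markers (median -0.09) had negative differences, none past the threshold, and of 8 myofibroblast markers (median -0.41) Col1a1 fell (-0.92 ± 0.21, adjusted p = 0.020). The part of these shifts in the enzyme differences was not tested. Of the other genes linked to fatty acid oxidation Dbi, the acyl-CoA binding protein, rose 1.48-fold in sham and 1.5-fold in H/R livers (0.56 ± 0.13 and 0.59 ± 0.12, adjusted p = 0.034 and 0.0041). Hsd17b10, a mitochondrial hydroxyacyl-CoA dehydrogenase, rose 1.32-fold after H/R (0.40 ± 0.11, adjusted p = 0.045).

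**Figure D4:**
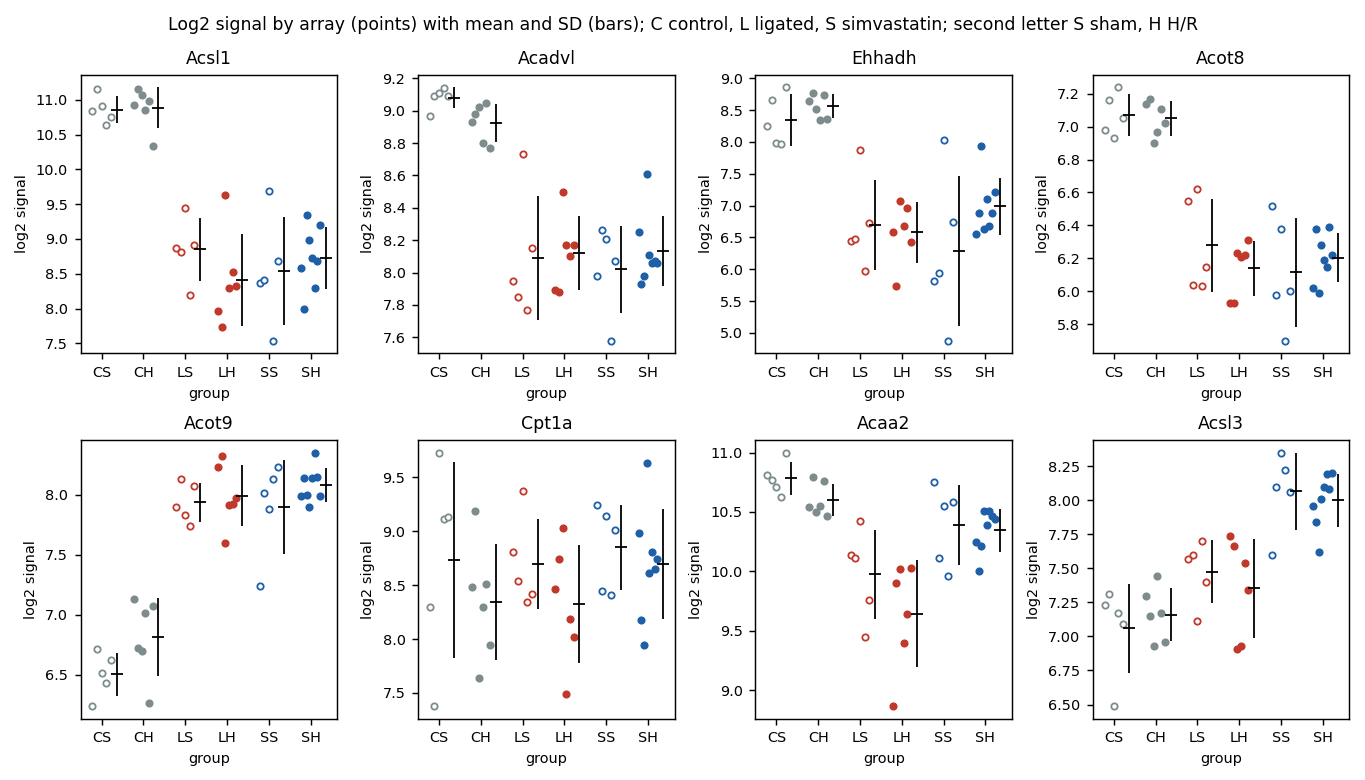
Log2 signal of 8 members in each array (points; open for sham, filled for H/R) with group mean and SD (bars): C control, L ligated without drug, S ligated with simvastatin. Acsl1, Acadvl, Ehhadh and Acot8 lie lower and Acot9 higher in the 4 ligated groups, Cpt1a overlaps throughout, and Acaa2 and Acsl3 are higher in simvastatin H/R than in ligated H/R livers.

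Levels with and without the drug are given for 5 members, chosen after their values were seen. Acsl1 averaged 8.54 ± 0.78 (SD, n = 5) in simvastatin sham and 8.73 ± 0.45 (SD, n = 8) in simvastatin H/R livers, against 8.85 ± 0.45 (SD, n = 5) and 8.41 ± 0.66 (SD, n = 6) without the drug. Ehhadh averaged 6.28 ± 1.18 (SD, n = 5) and 6.99 ± 0.44 (SD, n = 8), against 6.70 ± 0.71 (SD, n = 5) and 6.58 ± 0.47 (SD, n = 6). Acot9 averaged 7.90 ± 0.39 (SD, n = 5) and 8.08 ± 0.14 (SD, n = 8), against 7.93 ± 0.16 (SD, n = 5) and 7.99 ± 0.26 (SD, n = 6). Acot12 averaged 4.58 ± 0.68 (SD, n = 5) and 5.14 ± 0.36 (SD, n = 8), against 5.53 ± 0.64 (SD, n = 5) and 5.08 ± 0.63 (SD, n = 6). Acsm3 averaged 5.05 ± 0.29 (SD, n = 5) and 5.50 ± 0.53 (SD, n = 8), against 4.85 ± 0.14 (SD, n = 5) and 4.92 ± 0.69 (SD, n = 6). In these 5 genes no difference between drug and no drug passed the threshold, and that of Acot12 in sham livers was the largest in size. In simvastatin H/R livers Acot1 had the largest SD of the 44 members (1.10), with values from 4.51 to 7.76 (median 6.21). Its differences of 1.02 ± 0.44 and 0.82 ± 0.38 from untreated ligated sham and H/R livers did not pass (adjusted p = 0.38 and 0.31).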

How the data were processed

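Values are the deposited log2 signals per probe set, normalized by the authors, of liver RNA labelled with biotin per the labels and hybridised by an Affymetrix protocol to arrays whose probe set names carry PM. How they were normalized is not stated in the labels. Array medians ran from 3.97 to 4.29, and 0 pairs of arrays held identical values. The number of arrays limits the precision. Of 31139 probe sets, 19069 had 1 symbol in the platform annotation, 572 several and 11498 none; each of 13439 genes was represented by its brightest probe set, 44 of them members with 57 probe sets.

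One limma 3.58.1 model (R 4.3.3) over 35 arrays gave 9 comparisons, 2 of them differences of differences, with Benjamini-Hochberg adjustment over all genes and a threshold of 0.05. It was tested on simulated data. A group mean at or below that of the brightest of 23 nonspecific probes was taken as not above the floor; such a fold is a bound. Members, compartments, gene lists and tests were chosen with earlier results of these data known.

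Any member could be named, and full values went to up to 6 per direction with the smallest adjusted p past the threshold. Where fewer than 3 passed, the 3 of smallest p were given, not all of them with full values. Ehhadh, Acot12, Hadha, Hadhb, Cpt1a and Acox2 were detailed beyond that. Replicate numbers follow accession order. Alternatives changed the arrays in the fit, moderation, weights, dim-gene filters, scaling, probe set summary and title-ending block, and left out each array in turn.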

Additional observations from a re-analysis of the deposited data

Results flagged for a closer look

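In 16 of 264 combinations of a member and a group, 1 array stood apart from the others of its group by more than Dixon's limit; chance gives about 1 in 20. The log2 signals of these arrays follow, with the nearest other array of the group.

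In control livers Acad8 read 6.10 in control sham replicate 4 (nearest 6.65), Acox3 3.86 in replicate 1 (4.51, a dim gene), Acsl3 6.49 in replicate 3 (7.09) and Acsl1 10.33 in control H/R replicate 6 (10.86). In ligated sham livers Acad10 was high in replicate 3 at 6.44 (5.85), and Decr1 and Echdc3 were low in replicate 4 at 9.38 (9.78) and 7.58 (7.92). These are the ligated sham arrays that most often held the highest and the lowest values of the family.

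In simvastatin sham livers Acadsb read 2.16 in replicate 1 (3.31, not above the floor), Decr1 9.56 in replicate 2 (10.06) and Hadha 7.87 in replicate 4 (8.44). In simvastatin H/R livers Acadm (9.16, nearest 9.62), Acox2 (7.95, nearest 8.93) and Eci3 (9.95, nearest 10.06) were low in replicate 2. Cpt1c and Echdc1 were low in replicate 3 at 3.15 (3.87) and 7.22 (7.84), and Acadvl was high in replicate 4 at 8.61 (8.25).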

How the results depend on the processing

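No paired analysis was possible because replicate numbers follow accession order and pair no samples. The title-ending block over all arrays, chosen after seeing the data, changed most: 3 members passed for ligation in sham and 18 in H/R livers, and 0 for simvastatin after H/R, as in the block fit of that comparison's own groups (0). The cause was not tested. Other settings gave 26 to 33 calls in sham and 27 to 33 in H/R livers, and leaving out 1 array 26 to 32 and 24 to 30. Array weights gave 1 member for simvastatin in sham and 5 in H/R livers, and the mean of all probe sets 1 in H/R livers; leaving out 1 array gave 0 to 1 and 1 to 4. The comparisons for hemorrhage and its differences had 0 members in every setting run.

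Centring on array medians moved the median of all genes to -0.231 in sham and -0.186 in H/R livers, and their split of higher and lower calls from 3394 and 3008 to 2594 and 5128, and from 3314 and 2996 to 2611 and 4795. It gave 3 higher and 30 lower members in sham and 2 higher and 31 lower in H/R livers. All-gene counts moved over 1.5 times with the comparison's own groups alone (115 to 11 for hemorrhage in controls, 18 to 3 in ligated livers, 105 to 22 for simvastatin in sham livers) and with array weights (18 to 43, 105 to 397, 182 to 744, and 0 to 6 for hemorrhage with simvastatin). The all-array block gave 1129 and 3480 for ligation, 4 for hemorrhage in ligated livers, and 11 and 23 for simvastatin in sham and H/R livers; the block within a comparison's groups gave 4 and, for simvastatin after H/R, 13. Leaving out 1 array moved them from 50 to 190 for hemorrhage in controls, 2 to 45 in ligated livers, and 66 to 168 and 100 to 342 for simvastatin in sham and H/R livers.

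Signs turned as follows. In sham livers the all-array block gave Acot1 -0.04, Acot7 -0.32, Acsl4 0.26, Acsm5 0.19, Cpt1a 0.25, Decr1 0.22, Ech1 -0.03, Eci1 -0.09 and Ehhadh 0.12, and in H/R livers Acadsb 0.02, Acot2 -0.01 and Decr1 0.14. Quantile normalization gave Acot13 -0.08 in both, Acot7 -0.06, Acsl4 0.02 and Hadhb 0.05 in sham livers. Centring gave Acot13 -0.18 and -0.14, Ech1 -0.13 and -0.06, and Acot7 -0.17 and Eci1 -0.01 in sham livers. The mean of all probe sets gave Acot7 -0.36 and Eci1 -0.18 in sham livers, and 0 for the difference of differences of Acot7. Leaving out 1 array, sham ranges were -0.05 to 0.11 for Acot13, -0.04 to 0.11 for Acot7, -0.15 to 0.01 for Acsl4, -0.37 to 0.22 for Cpt1a, -0.03 to 0.21 for Ech1 and -0.13 to 0.03 for Hadhb, and H/R ranges -0.07 to 0.10 for Acot13, -0.16 to 0.15 for Cpt1a and -0.01 to 0.24 for Ech1.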
